A study of Mus musculus with 4 samples.

Results

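The expression of 10 mouse genes was followed in skeletal stem cells after ovariectomy or sham surgery. They encode the phospholipases Pla1a, Pla2g2e, Pla2g5 and Pla2g4a, the lysophospholipase D autotaxin (Enpp2), the lysophosphatidic acid (LPA) receptors Lpar1, Lpar4 and Lpar6, and the sphingosine 1-phosphate (S1P) receptors S1pr1 and S1pr3. The set is 10 of the 55487 gene IDs in the deposited count table, matched by symbol. It was chosen by the rise of Pla1a in these same libraries, so the values of Pla1a, its place among the called genes included, are a description and support nothing further. The libraries hold total RNA of sorted cells from the metaphysis of long bones of wild-type (WT) mice, 2 from ovariectomized and 2 from sham-operated mice. Removal of the ovaries takes away most circulating oestrogen and is widely used in rodents to model bone loss after menopause. All 4 libraries carry the time 8w, which the labels do not define as an age or as a time after surgery, and all 4 titles end in "control". The labels do not say how many animals gave the cells of a library, nor whether the libraries of a group came from separate animals. The p-values thus set a group difference against the spread of these samples within their groups, and that spread may be technical.

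Phospholipases of the A type release a fatty acid from membrane phospholipids and leave a lysophospholipid with a single acyl chain. Pla1a is a secreted enzyme that acts on phosphatidylserine and leaves lysophosphatidylserine. Secreted phospholipases A2 such as Pla2g2e and Pla2g5 act outside the cell, whereas cytosolic Pla2g4a frees arachidonic acid, the precursor of prostaglandins. Autotaxin turns lysophosphatidylcholine into LPA, and sphingosine kinases make S1P. Both lipids signal through G protein-coupled receptors, and in bone they are known to act on osteoblasts, osteoclasts and their precursors.

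Pla2g2e and Pla2g5 lie in a cluster of secreted phospholipase A2 genes on chromosome 4, and the regions around their start sites are printed because one of these neighbours rose after ovariectomy and the other did not pass the test. RefSeq gives windows of 250 bases before and 50 bases after a start site, on GRCm38.p6, for 7 of the 10 genes. Capitals mark matches on either strand to 4 motifs: a TATA box (TATAAA), an AP-1 site (TGANTCA), a nuclear receptor half-site (AGGTCA) and a Runx core site (TGTGGT). The Pla2g2e window is chr4:138877692-138877991 on the plus strand. The 2 Pla2g5 windows are chr4:138863420-138863719 and chr4:138819208-138819507, both on the minus strand, and each is printed 5′ to 3′ on the strand of its gene.
Pla2g2e: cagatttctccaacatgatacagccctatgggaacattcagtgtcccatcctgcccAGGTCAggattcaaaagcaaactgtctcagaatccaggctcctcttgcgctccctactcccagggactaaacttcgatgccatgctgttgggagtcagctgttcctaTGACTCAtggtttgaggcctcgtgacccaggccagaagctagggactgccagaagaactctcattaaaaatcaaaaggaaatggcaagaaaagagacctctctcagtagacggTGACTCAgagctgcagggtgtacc
Pla2g5 window 1: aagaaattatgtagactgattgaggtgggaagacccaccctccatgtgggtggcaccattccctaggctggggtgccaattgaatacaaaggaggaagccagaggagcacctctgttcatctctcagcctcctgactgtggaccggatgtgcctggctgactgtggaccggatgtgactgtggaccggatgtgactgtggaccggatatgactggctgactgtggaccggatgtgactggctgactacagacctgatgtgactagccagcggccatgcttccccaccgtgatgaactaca
Pla2g5 window 2: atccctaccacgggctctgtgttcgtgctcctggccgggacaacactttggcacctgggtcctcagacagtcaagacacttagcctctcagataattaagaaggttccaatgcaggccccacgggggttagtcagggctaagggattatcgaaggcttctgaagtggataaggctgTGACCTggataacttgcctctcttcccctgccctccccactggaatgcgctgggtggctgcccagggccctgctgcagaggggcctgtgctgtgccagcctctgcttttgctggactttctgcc
The Pla2g2e window holds 2 AP-1 matches, which begin 87 bases before and 26 bases after the start site, and a nuclear receptor half-site that begins 194 bases before it. No motif matched in Pla2g5 window 1, and window 2 holds a half-site on the opposite strand, 74 bases before its start site. Among all 32851 RefSeq windows of this length, 7.81% hold an AP-1 match, 16.3% a half-site, 13.6% a TATA box and 16.8% a Runx core site. Of the other genes with a window, Pla2g4a had a half-site in window 1 and Lpar1 a Runx core site. The letters TATAAA matched on the opposite strand in Pla2g4a window 2, 200 bases before its start site, and in Lpar4, 203 bases before. Neither Lpar6 nor S1pr3 had a match. No matches overlapped in the printed windows, and a match is a stretch of letters, not a measured binding site.

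The libraries held 23228031 and 18291436 counts after ovariectomy and 22935095 and 23721078 after sham surgery. Levels are given as TMM-scaled CPM, which sets counts against a library total adjusted for composition, so that 1 count was worth between 0.0423 and 0.0519 CPM. Of the 17120 genes with enough counts to test, 2.98% (510) were called higher and 1.20% (206) lower after ovariectomy at an adjusted p under 0.05 (edgeR's two-sided quasi-likelihood test, Benjamini-Hochberg). With library totals as the only scaling the calls were 718 higher and 156 lower, so that higher calls made up 82.2% instead of 71.2%, and the median log2 fold change of all genes was 0.09 instead of -0.02. Every call named below was lost when either ovariectomy library was left out, as were all other calls of the table (0 genes by edgeR, against 1788 at an unadjusted p under 0.05 without ovariectomy 1 and 1618 without ovariectomy 2).

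Markers of other cells moved with the groups. Among stromal lists, 3 of 8 LepR stroma markers were called higher (summed level 899 and 1206 CPM after ovariectomy, 252 and 376 CPM in sham cells), 3 of 11 pericyte and smooth muscle markers (619 and 696 CPM, against 347 and 378 CPM in sham cells), and 4 of 10 fibroblast and tendon markers, with 1 lower (2736 and 2705 CPM, against 3573 and 3805 CPM in sham cells). Most of that last sum is Fmod, the marker called lower, and the other 9 fibroblast and tendon markers summed to 368 and 392 CPM after ovariectomy and 77.2 and 139 CPM in sham cells. The rise of the pericyte and smooth muscle sum lay mostly in Rgs5 (295 and 361 CPM after ovariectomy, 5.66 and 46.4 CPM in sham cells). The other markers called in that list were Acta2 and Des. Cspg4, which was not called, had 214 and 222 CPM after ovariectomy and 284 and 266 CPM in sham cells. The LepR stroma markers called were Igfbp5, Cxcl12 and Vcam1. Most of that list's sum was Igfbp5, with 564 and 751 CPM after ovariectomy and 110 and 165 CPM in sham cells. Kitl and Angpt1 were higher in both ovariectomy libraries without passing the test. For Lepr itself, Ebf3 and Foxc1 the libraries of the groups overlapped. Among blood lists, 3 of 6 tested erythroid markers (118 and 159 CPM, against 37.9 and 21.9 CPM in sham cells), 2 of 8 granulocyte markers (178 and 284 CPM, against 139 and 86.7 CPM in sham cells) and 1 of 5 tested lymphocyte markers (10.4 and 17.6 CPM, against 3.70 and 3.96 CPM in sham cells) were called higher, and the erythroid marker Rhag had 0 counts in both sham libraries. The granulocyte markers called were Mpo and Elane. Mpo alone had 58.3 and 110 CPM after ovariectomy and 3.39 and 0.490 CPM in sham cells. S100a8 was higher in both ovariectomy libraries without passing the test. In the other 5 granulocyte markers (S100a9, Ngp, Camp, Ltf and Cebpe) the libraries of the groups overlapped. Macrophage markers summed to 107 and 148 CPM after ovariectomy and 75.2 and 82.9 CPM in sham cells. Endothelial markers summed to 55.9 and 86.4 CPM after ovariectomy and 17.3 and 60.9 CPM in sham cells. Adipocyte markers summed to 6.85 and 8.93 CPM after ovariectomy and 2.45 and 4.05 CPM in sham cells, with Retn at 0 counts in every library, and megakaryocyte markers to 7.36 and 8.73 CPM after ovariectomy and 3.48 and 13.7 CPM in sham cells. In the other direction, 6 of 8 chondrocyte markers (60667 and 55138 CPM after ovariectomy, 103772 and 95925 CPM in sham cells) and 4 of 8 osteoblast markers (74417 and 68296 CPM, against 83795 and 112896 CPM in sham cells) were called lower. Of the antigens stained for the sort, Itgav (CD51) averaged 70.5 CPM after ovariectomy and 68.9 CPM in sham cells, and Cd200 averaged 164 CPM after ovariectomy and 271 CPM in sham cells (called lower, edgeR adjusted p = 0.0462). Cells of this name are usually selected as positive for these 2 antigens and negative for the others. Ptprc (CD45) averaged 5.0 CPM after ovariectomy and 7.40 CPM in sham cells and Thy1 (CD90) 0.184 and 0.156 CPM in the same groups, while Eng (CD105) averaged 79.2 CPM after ovariectomy and 36.9 CPM in sham cells. Tek (Tie2) averaged 8.65 CPM after ovariectomy and 2.87 CPM in sham cells, and Enpep (6C3) 4.02 CPM after ovariectomy and 1.72 CPM in sham cells. For Eng, Tek and Enpep both ovariectomy libraries lay above both sham libraries, as in 25.5% of all tested genes, without passing the test. The sham libraries differed widely for Tek (0.223 CPM in sham 1 and 5.52 CPM in sham 2) and for Eng (21.6 and 52.1 CPM). In bulk RNA, fewer cells of a type and less RNA per cell cannot be told apart, and the part of these cell types in the results below was not tested.

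Pla2g2e, a secreted phospholipase, rose after ovariectomy beside Pla1a, and the other 8 genes did not pass the test in either direction. Counted with Pla1a, 2 of 10 genes were called higher, beside 2.98% of all tested genes, but the rise of Pla1a chose the set and nothing is read from the share. None was called lower, beside 1.20% of all tested genes. At an unadjusted p under 0.05, 3 of the 10 were lower and 2 higher, beside 7.83% and 10.6% of all tested genes. DESeq2 and limma-voom each called 2 of them lower, Enpp2 and Lpar4, beside 2.84% of all tested genes with DESeq2 and 1.83% with limma-voom. In 4 genes (Pla1a, Pla2g2e, Pla2g4a and Lpar1) both ovariectomy libraries lay above both sham libraries, which was so for 25.5% of all tested genes. In another 4 (Pla2g5, Enpp2, Lpar4 and S1pr1) both lay below, which was so for 23.9% of all tested genes. The groups overlapped for Lpar6 and S1pr3.

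**Figure D1:**
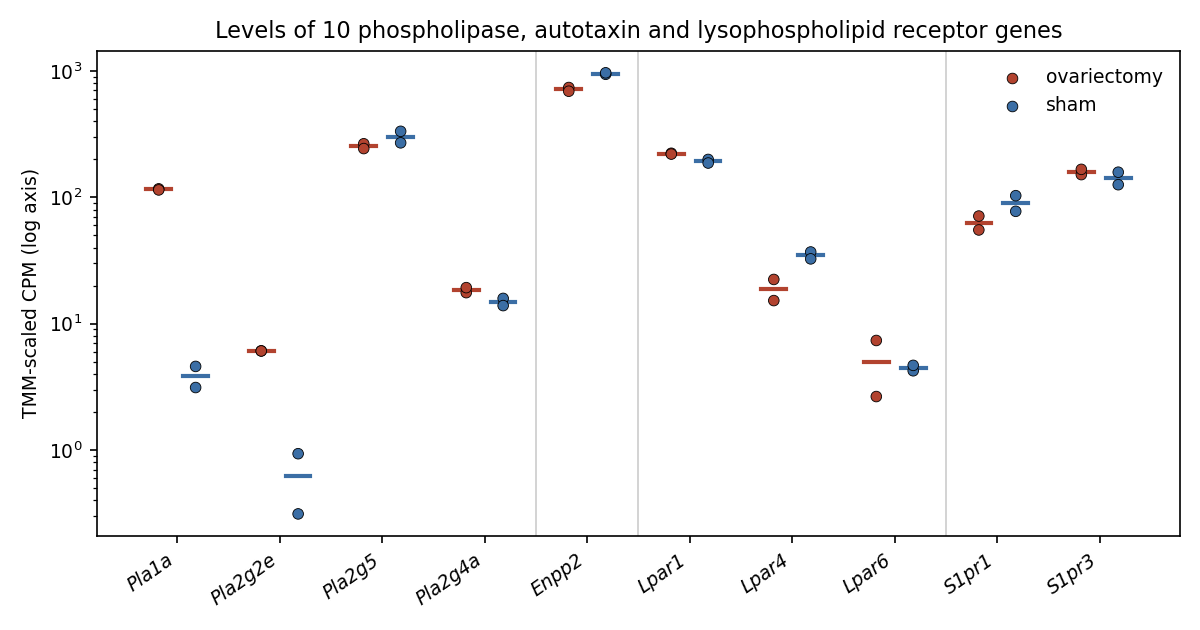
TMM-scaled CPM of the 10 genes on a log axis, with a point for each library, a bar at the mean, and ovariectomy left of sham for each gene. Pla1a stands at 117 and 114 CPM after ovariectomy against 3.12 and 4.59 CPM in sham cells, while the autotaxin gene Enpp2 is the most abundant of the set in every library.

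Pla1a (chr16:38396117-38433145, minus strand, GRCm38) was the gene the set was chosen for. It had 2756 and 2200 counts after ovariectomy and 70 and 103 counts in sham cells, which is 117 and 114 CPM after ovariectomy against 3.12 and 4.59 CPM in sham cells. The ovariectomy libraries differed from each other by 1.02-fold and the sham libraries by 1.47-fold. The mean was 115 ± 1.60 CPM after ovariectomy and 3.85 ± 1.03 CPM in sham cells (SD, n = 2 each), a ratio of 29.9 and a fitted log2 fold change of 4.90. Among the 510 genes called higher, Pla1a ranked 40 by fold change, and it ranked 9 among the 447 of them whose mean level reached 5 CPM. Its log2 fold change lay between 4.65 and 5.22 under every alternative tried. The gene shares no exon with another annotated gene. By level it ranked 1047 among the 17120 tested genes after ovariectomy and 10561 in sham cells.

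Pla2g2e (chr4:138877942-138882817, plus strand), a secreted phospholipase A2, was the gene of the other 9 that passed the test. It had 144 and 117 counts after ovariectomy and 7 and 21 counts in sham cells, or 6.09 and 6.08 CPM after ovariectomy and 0.312 and 0.935 CPM in sham cells. Sham 1 lay below the minimum of about 10 counts that the filter asks of 2 libraries. The gene was thus tested only because of its level after ovariectomy, which limits what its p-value can support. The sham libraries differed from each other by 2.99-fold, on few counts, and both lay well below the ovariectomy libraries. The log2 fold change was 3.27 ± 0.60 (SE; 95% interval 1.87 to 4.67; edgeR adjusted p = 0.0281), a ratio of means of 9.75. Without sham 2, which had the higher of the sham levels, it was 4.27, and without sham 1 it was 2.70. Without ovariectomy 1 and without ovariectomy 2 the adjusted p was 0.393 and 0.389. The means were 6.08 ± 0.00814 CPM after ovariectomy and 0.624 ± 0.440 CPM in sham cells (SD, n = 2 each).

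Pla2g5 (chr4:138799244-138863482, minus strand), a secreted phospholipase A2 that also acts on phosphatidylcholine, is 14459 bases from Pla2g2e and did not pass the test. It had 265 and 243 CPM after ovariectomy and 332 and 270 CPM in sham cells. The ovariectomy libraries lay below both sham libraries, but sham 2 was closer to ovariectomy 1 than to sham 1. Its log2 fold change was -0.25 ± 0.14 (95% interval -0.57 to 0.08; adjusted p = 0.416). The other secreted phospholipase A2 genes of the cluster were near the detection limit: Pla2g2c, Pla2g2d and Pla2g2f had at most 4 counts in any library and 0 in both sham libraries. Pla2g2a, annotated as a polymorphic pseudogene and lying inside the span of Pla2g5, had 18 and 12 counts after ovariectomy and 45 and 23 in sham cells. The next gene beyond Pla2g2e, Otud3, had a log2 fold change of 0.82 with an adjusted p of 0.658. Farther along, Tmco4 and Htr6 did not pass the test, while Nbl1 was called higher (log2 fold change 1.91; edgeR adjusted p = 0.00482).

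Pla2g4a (chr1:149829618-149961290, minus strand), cytosolic phospholipase A2, had 17.6 and 19.3 CPM after ovariectomy and 15.8 and 13.9 CPM in sham cells. Its groups did not overlap, but the difference did not pass the test (log2 fold change 0.31 ± 0.21; 95% interval -0.18 to 0.80; adjusted p = 0.513). The summed level of the 4 phospholipases was 405 and 382 CPM after ovariectomy and 352 and 289 CPM in sham cells. Per kilobase of exon, Pla1a made up 36.4% and 37.7% of this sum after ovariectomy and 1.30% and 2.31% in sham cells. Pla2g5 made up 57.7% and 55.9% after ovariectomy and 96.3% and 94.5% in sham cells. Pla2g5 was thus the largest part in every library, and Pla1a came next to it after ovariectomy.

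**Figure D2:**
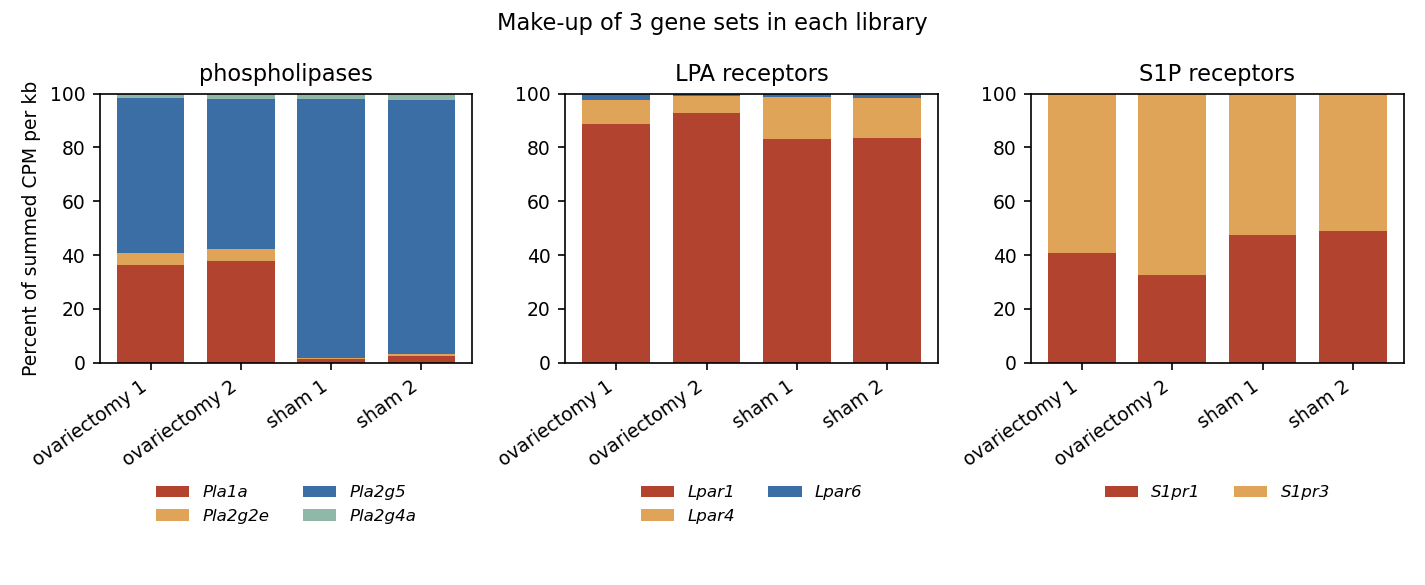
Stacked bars of each gene's percent of the summed CPM per kilobase of exon in each library, for the 4 phospholipases, the 3 LPA receptors and the 2 S1P receptors. Pla1a makes up 36.4% and 37.7% of the phospholipase sum after ovariectomy and 1.30% and 2.31% in sham cells, while Lpar1 is over 80% of the LPA receptor sum in every library.

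Enpp2 (chr15:54838901-54952892, minus strand) encodes autotaxin, the secreted enzyme that makes most extracellular LPA. It was the most abundant gene of the set, with 738 and 690 CPM after ovariectomy and 940 and 965 CPM in sham cells. Both ovariectomy libraries lay below both sham libraries, and the pairs differed by 1.07-fold after ovariectomy and 1.03-fold in sham cells. The log2 fold change was -0.42 ± 0.10 (95% interval -0.65 to -0.18), a 1.33-fold lower mean, and it did not pass the adjusted threshold (edgeR adjusted p = 0.0729). It passed with DESeq2 (adjusted p = 0.00232) and with limma-voom (adjusted p = 0.0225). Enpp2 shares 5.97% of its exon length with Gm26684, which had at most 13 counts in any library.

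Of the LPA receptors, Lpar1 was by far the most abundant and none passed the test. Lpar1 (chr4:58435255-58553898, minus strand), a receptor that couples to several G proteins, had 223 and 220 CPM after ovariectomy and 199 and 187 CPM in sham cells. The groups did not overlap, and the log2 fold change was 0.20 ± 0.11 (95% interval -0.07 to 0.46; adjusted p = 0.426). Lpar4 (chrX:106920625-106933900, plus strand), a receptor of the purinergic-like branch, had 22.4 and 15.2 CPM after ovariectomy and 36.9 and 32.5 CPM in sham cells. Both ovariectomy libraries lay below both sham libraries, and the ovariectomy mean was 1.85-fold lower. Lpar4 had a log2 fold change of -0.88 ± 0.23 (95% interval -1.41 to -0.35), with an adjusted p of 0.0843 by edgeR, 0.0132 by DESeq2 and 0.0471 by limma-voom.

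Lpar6 (chr14:73237895-73243294, plus strand), a receptor of the same branch known for its role in hair growth in humans, had 7.36 and 2.65 CPM after ovariectomy and 4.24 and 4.67 CPM in sham cells. Its ovariectomy libraries lay on either side of the sham libraries and differed from each other by 2.78-fold. The log2 fold change of 0.17 ± 0.51 (95% interval -1.02 to 1.36; adjusted p = 0.922) became -0.73 without ovariectomy 1 and 0.74 without ovariectomy 2. Lpar6 lies inside the span of Rb1, on the opposite strand, and shares 7.56% of its exon length with it. Rb1 had 6.30 and 10.1 CPM after ovariectomy and 6.42 and 5.25 CPM in sham cells. The summed level of the 3 LPA receptors was 253 and 237 CPM after ovariectomy and 240 and 224 CPM in sham cells. Per kilobase, Lpar4 made up 9.01% and 6.50% of the receptors after ovariectomy and 15.6% and 14.8% in sham cells, and Lpar1 made up 88.7% and 92.6% after ovariectomy and 83.0% and 83.6% in sham cells.

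Of the S1P receptors, neither passed the test. S1pr1 (chr3:115710433-115715072, minus strand), which couples to Gi and is known for guiding cells out of tissues, had 71.0 and 55.1 CPM after ovariectomy and 77.4 and 103 CPM in sham cells. The ovariectomy libraries lay below the sham libraries, with ovariectomy 1 and sham 1 close together. In the fit its log2 fold change was -0.52 ± 0.19 (95% interval -0.96 to -0.07; adjusted p = 0.207). It was -0.70 without sham 1, where the adjusted p was 0.0236, and -0.28 without sham 2. S1pr3 (chr13:51408639-51422797, plus strand), which couples to several G proteins, had 151 and 166 CPM after ovariectomy and 126 and 158 CPM in sham cells. Its groups overlapped, and the log2 fold change was 0.16 ± 0.15 (95% interval -0.18 to 0.51; adjusted p = 0.657). S1pr3 shares 1.01% of its exon length with Gm32834, which had at most 9 counts in any library. Per kilobase, S1pr1 made up 40.8% and 32.7% of the pair after ovariectomy and 47.4% and 48.9% in sham cells, and S1pr3 was the larger part in every library.

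**Figure D3:**
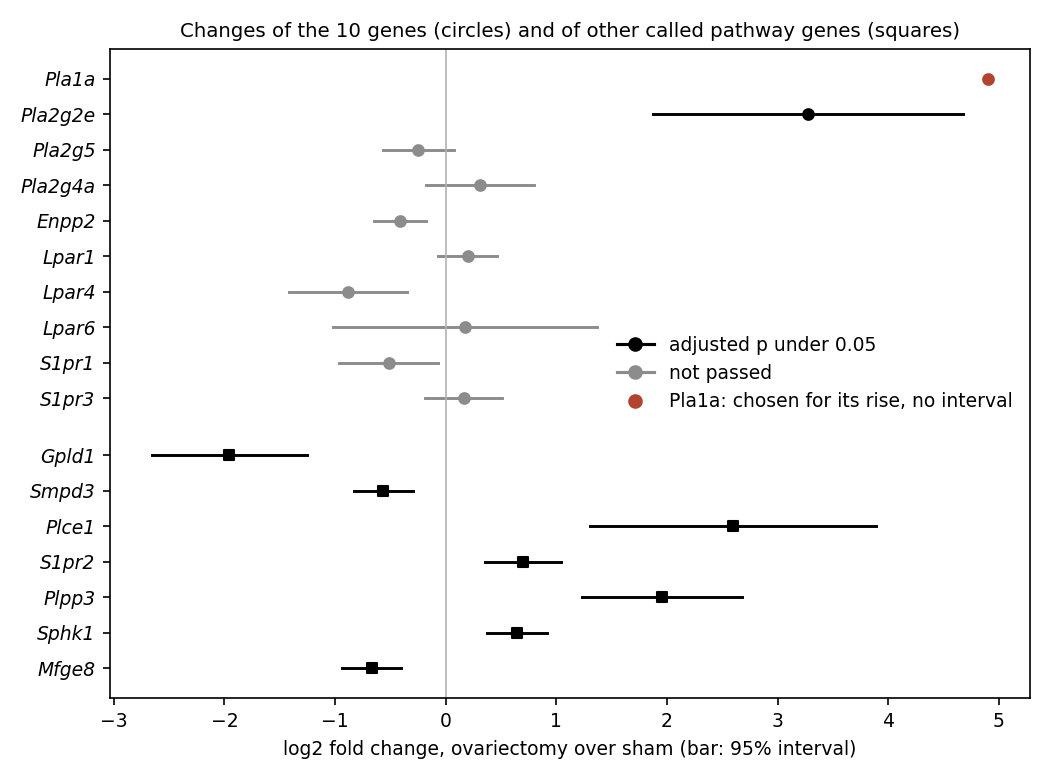
Log2 fold change (ovariectomy over sham) for the 10 genes, as circles, with its 95% interval except for Pla1a, and for the 7 other called genes of the pathway lists, as squares. Pla2g2e at 3.27 and the 7 genes drawn as squares have intervals that leave out 0, which follows from their being called. The intervals of Pla2g5, Pla2g4a, Lpar1, Lpar6 and S1pr3 include 0. Those of Enpp2, Lpar4 and S1pr1 lie below 0 without passing the adjusted threshold.

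To order the genes by level, CPM was divided by exon length. After ovariectomy the means per kilobase were 124 ± 5.92 CPM for Enpp2, 88.0 ± 5.45 for Pla2g5, 57.4 ± 0.795 for Pla1a, 51.6 ± 0.539 for Lpar1, 35.6 ± 2.41 for S1pr3 and 20.7 ± 3.69 for S1pr1 (SD, n = 2). Below these stood Pla2g2e at 6.63 ± 0.00887, Lpar4 at 4.43 ± 1.19, Pla2g4a at 2.88 ± 0.186 and Lpar6 at 0.926 ± 0.616 CPM per kilobase. No neighbours in this order overlapped in their libraries. In sham cells the order was Enpp2 at 165 ± 3.17, Pla2g5 at 104 ± 15.4, Lpar1 at 45.0 ± 2.07, S1pr3 at 31.8 ± 5.09, S1pr1 at 29.6 ± 5.93, Lpar4 at 8.19 ± 0.724, Pla2g4a at 2.33 ± 0.215, Pla1a at 1.92 ± 0.515, Lpar6 at 0.825 ± 0.0573 and Pla2g2e at 0.680 ± 0.480 CPM per kilobase. There the libraries of S1pr3 and S1pr1, of Pla2g4a and Pla1a, and of Lpar6 and Pla2g2e overlapped. Pla1a thus stood in place 3 of the order after ovariectomy, above every receptor, and in place 8 in sham cells.

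The 5 genes with the pattern most like Pla1a were found by Euclidean distance in log2(CPM + 0.5), centred on each gene's mean, over the 4 libraries and among 9780 named genes whose mean level reached 5 CPM. They were Has1, a hyaluronan synthase, at a distance of 0.232, Ereg, the growth factor epiregulin, at 0.273, Fgl2, a fibrinogen-like protein, at 0.421, Plau, the urokinase protease, at 0.573, and Emilin2, an extracellular matrix glycoprotein, at 0.620. Has1 averaged 3449 ± 315 CPM after ovariectomy and 115 ± 29.8 CPM in sham cells (SD, n = 2 each). Fgl2 averaged 1104 ± 117 CPM after ovariectomy and 49.99 ± 21.99 CPM in sham cells, and Emilin2 138 ± 5.72 CPM after ovariectomy and 7.28 ± 3.49 CPM in sham cells. Ereg averaged 15.9 ± 0.336 CPM after ovariectomy, against 0.111 ± 0.0314 CPM in sham cells. Plau averaged 23.0 ± 1.55 CPM after ovariectomy and 0.490 ± 0.127 CPM in sham cells. The mean sham levels of Ereg and Plau lie below the pseudocount of 0.5 CPM, which shrinks their differences between the groups in this measure, so their distances rest on it.

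In the 8 lists of 136 other genes of these pathways, 113 genes were tested, 4 rose (Plpp3, Sphk1, S1pr2 and Plce1) and 3 fell (Gpld1, Smpd3 and Mfge8). Among all tested genes 2.98% rose and 1.20% fell, and nothing is read from so few calls. The median log2 fold change of the 113 was 0.01, beside -0.02 for all tested genes. The lists, like the set, were drawn up with earlier results of these data known.

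Among 18 tested genes for synthesis, transport and breakdown of LPA and S1P, 2 rose (median log2 fold change 0.04). Plpp3, a membrane phosphatase that breaks down LPA and S1P outside the cell, had 176 and 226 CPM after ovariectomy and 34.4 and 69.3 CPM in sham cells. Its libraries did not overlap between the groups, and its log2 fold change was 1.96 ± 0.31 (edgeR adjusted p = 0.0165), with 2.56 without sham 2 and 1.54 without sham 1. Sphk1, a sphingosine kinase that makes S1P, had 162 and 159 CPM after ovariectomy and 104 and 101 CPM in sham cells, with little spread within either group (log2 fold change 0.64 ± 0.12; adjusted p = 0.0272). Of the 13 other lysophospholipid receptors, 6 were tested and only S1pr2 was called. S1pr2, an S1P receptor coupled to several G proteins, had 54.5 and 51.8 CPM after ovariectomy and 34.3 and 31.3 CPM in sham cells. Its rise was 0.70 ± 0.15 on the log2 scale (adjusted p = 0.0470), and the adjusted p was 0.0585 with upper-quartile scaling and 0.0516 without sham 2. Among the receptors too low to test were Lpar2, S1pr5, and the lysophosphatidylserine receptors P2ry10 and Gpr174. A further receptor for lysophosphatidylserine, Gpr34, was among the 6 tested and was not called.

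Among 23 tested phospholipases C and D and sphingomyelinases, 1 rose and 2 fell (median log2 fold change 0.05). Plce1, a phospholipase C regulated by Ras proteins, had 8.50 and 8.83 CPM after ovariectomy and 0.669 and 2.18 CPM in sham cells. Its rise was 2.60 ± 0.55 on the log2 scale (adjusted p = 0.0479), with 3.69 without sham 2 and 1.99 without sham 1. Smpd3, a neutral sphingomyelinase whose loss deforms the mouse skeleton, had 1696 and 1427 CPM after ovariectomy and 2237 and 2379 CPM in sham cells. It fell by 0.56 on the log2 scale (SE 0.11; adjusted p = 0.0404), and the adjusted p was 0.0575 with library totals as the only scaling. Gpld1, which cuts proteins from their GPI anchor, had 3.26 and 4.73 CPM after ovariectomy and 14.5 and 16.4 CPM in sham cells (log2 fold change -1.96 ± 0.30; adjusted p = 0.0150). Gpld1 shares 45.5% of its exon length with Mrs2 on the opposite strand, and without a stated strand setting reads of these genes cannot be told apart.

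Among 17 tested genes of phosphatidylserine synthesis and exposure, the substrate side of Pla1a, 1 fell (median log2 fold change -0.06). Mfge8, a secreted protein that binds exposed phosphatidylserine, had 1594 and 1362 CPM after ovariectomy and 2446 and 2254 CPM in sham cells (log2 fold change -0.67 ± 0.11; adjusted p = 0.0207). Both ovariectomy libraries lay below both sham libraries.

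No gene was called by edgeR among 6 tested other secreted phospholipases A2, 20 other intracellular phospholipases A, 3 other lipases of the Pla1a family and 20 acyltransferases and lysophospholipases. At an unadjusted p under 0.05 these lists held 1, 2, 1 and 2 genes, in the same order, beside 18.4% of all tested genes. DESeq2 called Pla2g7 lower and Lpl higher in them, and limma-voom called 1 gene higher, in the Pla1a family. Of all tested genes, DESeq2 called 5.43% higher and 2.84% lower, and limma-voom called 3.70% higher. Lpl, lipoprotein lipase and a relative of Pla1a, averaged 14.8 ± 3.10 CPM after ovariectomy and 5.95 ± 1.28 CPM in sham cells (log2 fold change 1.31 ± 0.30; edgeR adjusted p = 0.0589). The hepatic lipase gene Lipc averaged 50.7 ± 9.27 CPM after ovariectomy and 63.7 ± 16.5 CPM in sham cells (adjusted p = 0.497). Pla2g7, the platelet-activating factor acetylhydrolase, averaged 6.70 ± 0.809 CPM after ovariectomy and 14.9 ± 4.59 CPM in sham cells (log2 fold change -1.15; adjusted p = 0.0916). Pla2g10, another secreted phospholipase A2, averaged 1.48 ± 0.774 CPM after ovariectomy and 3.79 ± 1.32 CPM in sham cells (adjusted p = 0.284). Pnpla2, adipose triglyceride lipase, averaged 46.3 ± 7.07 CPM after ovariectomy and 28.2 ± 10.4 CPM in sham cells (adjusted p = 0.205), and Pla2g16, a phospholipase that also acts as an acyltransferase, 6.74 ± 1.04 CPM after ovariectomy and 3.30 ± 1.45 CPM in sham cells (adjusted p = 0.250). Of the acyltransferases, Lpcat2, which acts on lysophosphatidylcholine, averaged 14.7 ± 0.543 CPM after ovariectomy and 21.9 ± 5.26 CPM in sham cells (adjusted p = 0.247), and Lpgat1 17.7 ± 2.37 CPM after ovariectomy and 9.96 ± 4.75 CPM in sham cells (adjusted p = 0.258). The libraries of the groups overlapped for Lipc and did not overlap for the other genes named in this paragraph. Over all tested genes, both ovariectomy libraries lay above both sham libraries in 25.5% and below in 23.9%. The genes were named for their small p, so nothing is read from the lack of overlap.

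**Figure D4:**
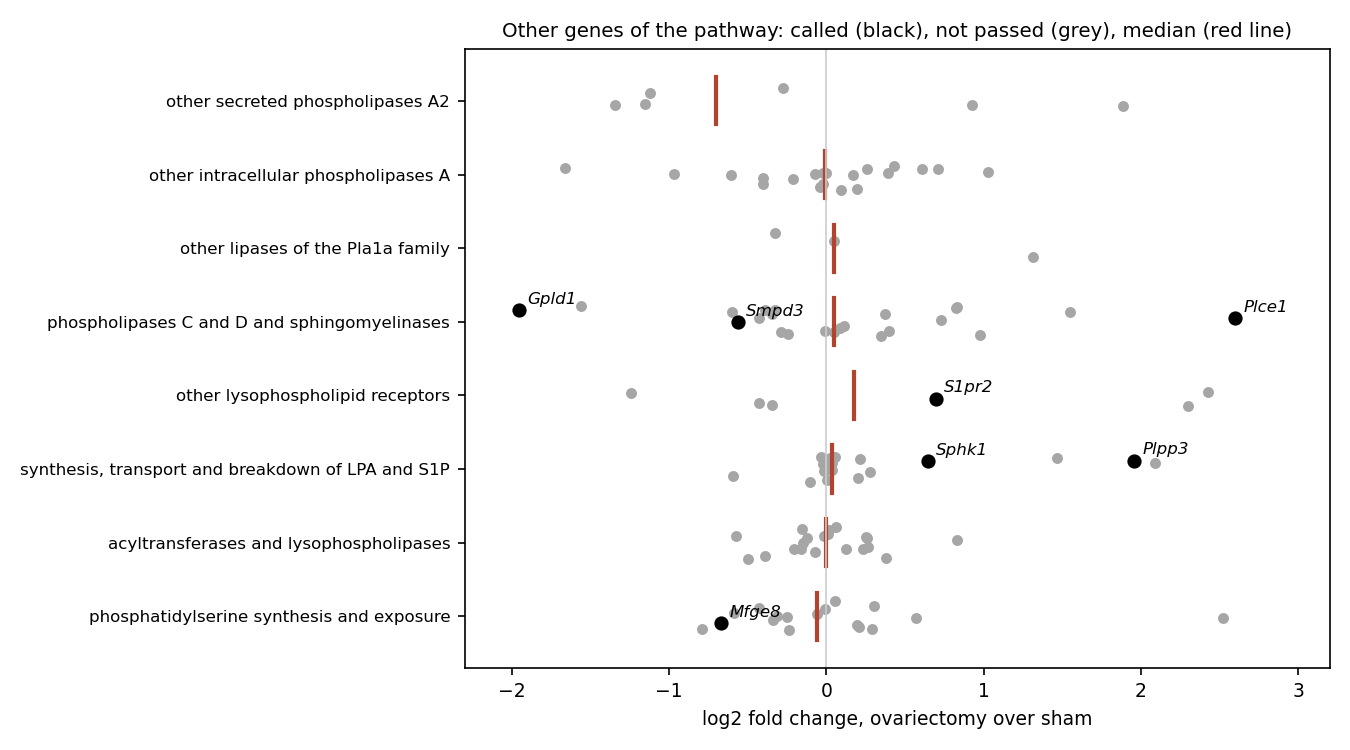
Log2 fold change (ovariectomy over sham) of the 113 tested genes of the 8 pathway lists, a point per gene, with called genes in black and named and the median of each list as a red line. The medians lie between -0.70 in the other secreted phospholipases A2 and 0.18 in the other lysophospholipid receptors, and the 7 called genes are spread over 4 lists.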

How the data were processed

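Bulk RNA-seq of 4 libraries was deposited by the authors as raw counts in a single table, with no normalization. The submitters' processing notes name Trim Galore 0.6.6 for trimming, featureCounts 2.0.1 for counting, and the build GRCm38 (mm10). Aligner, annotation release and strand setting were not given in the sources used here. Per the labels' protocols, a SMARTER mRNA kit was used. GENCODE M21 gave names, positions and exon lengths to 55227 of 55487 IDs.

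From these counts (18291436 to 23721078 per library), genes were kept by filterByExpr at its defaults, scaled by TMM, and compared by the two-sided quasi-likelihood test of edgeR 4.0.16 in R 4.3.3 (group as the only term), with Benjamini-Hochberg adjustment over all 17120 tested genes, and called at an adjusted p under 0.05. SEs are the log2 fold change divided by the square root of F. Alternatives were library totals, upper-quartile scaling, DESeq2 1.42.0, limma-voom (limma 3.58.1), no filter, a mean of at least 5 CPM, each library left out, and a replicate block.

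The text names all 10 genes, genes sharing exons with them, up to 4 called genes of each list by p (with none called, the 2 with the smallest p), and the 5 genes most like Pla1a. The genes in and near the chromosome 4 cluster, the untested receptors, Gpr34 and the markers were chosen after their values were seen. The genes and lists were chosen with earlier results of these data known. Another list of the pathway is not reported here.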

Additional observations from a re-analysis of the deposited data

How the results depend on the processing

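The number of genes called was 716, and was 1416 with DESeq2, 1656 without a filter, 1103 with a mean of at least 5 CPM, and between 0 and 1835 with 1 library left out. Of the 10 genes, Pla1a included, 2 were called, 4 with DESeq2, 4 with limma-voom, 5 without a filter, and between 0 and 3 with 1 library left out. Of the other pathway genes 7 were called, 15 with DESeq2, 17 without a filter, 12 with a mean of at least 5 CPM, and between 0 and 20 with 1 library left out. The cause of these changes was not tested. Lpar6 lay between -0.73 and 0.74 (log2 fold change) with 1 library left out, and its sign turned without ovariectomy 1, the only reversal among the alternatives for single genes, of which 263 kept direction and call, 31 lost a call and 32 gained one. Pla2g2e was not tested at a mean of at least 5 CPM. Libraries with the same replicate number had nearly uncorrelated deviations from their group means (r = 0.0116 over 17120 genes). The labels do not say whether such libraries were handled together, and this measure cannot decide it. With the replicate block 1074 genes, 4 of the 10 and 10 of the other pathway genes were called. With 2 libraries a group, the 95% intervals span several-fold for Pla2g2e, which had few sham counts, and for Lpar6, whose ovariectomy libraries differed by 2.78-fold. A gene that missed the threshold is not shown to be unchanged.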
